A study of Mus musculus with 10 samples.

Results

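The mitochondrial ribosomal protein genes were taken as the protein-coding genes whose symbol begins with Mrpl or Mrps followed by a digit. There were 78 of them among 57185 genes with values, 49 named for the large subunit and 29 for the small subunit, and all 78 were among the 13451 genes tested. They lay on 17 chromosomes. The measurement was bulk RNA sequencing of polyA-selected RNA from the frozen apical part of the ventricle of 10 male mice, 5 in each of 2 groups, labelled as left ventricle and as 16 weeks of age. Mice of both groups lacked muscle LIM protein (MLP, the product of Csrp3), which gives a dilated cardiomyopathy, and both carried floxed alleles of Rrad, the gene for RAD, a small GTPase that restrains the L-type calcium channel. All 10 received 1 dose of tamoxifen, 100 mg/kg into the peritoneum, at 10 weeks, and the labels place tissue collection 1 month after it, which does not match the labelled age, so the interval after RAD loss is uncertain. In the group called cRADΔ/Δ-MLPKO (labelled MLPKO-cRADKO), the MYH6-MerCreMer transgene, which is driven by a cardiomyocyte promoter, deleted RAD after tamoxifen. The group called MLPKO did not carry that transgene, so that loss of RAD and presence of the recombinase cannot be told apart. The comparison asks whether messenger RNA for the mitochondrial ribosome differed between failing MLPKO hearts and the same model after RAD loss in cardiomyocytes.

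Mitochondria keep their own ribosome, which translates the few messenger RNAs of the mitochondrial genome into core subunits of the respiratory chain and ATP synthase. Its 2 RNAs are transcribed in the organelle, but every one of its proteins is encoded in the nucleus, made in the cytosol and imported. Some of these proteins descend from bacterial ribosomal proteins, and others were added in the mitochondrial lineage. The heart, which is rich in mitochondria, depends on this machinery, and inherited defects in several of the genes cause cardiomyopathy in people.

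No mitochondrial ribosomal protein gene passed the test between the groups. By edgeR's quasi-likelihood test with Benjamini-Hochberg adjustment over all genes tested, 0 of 49 large-subunit and 0 of 29 small-subunit genes had an adjusted p under 0.05, against 2.74% of all genes tested. DESeq2 called 2 genes, Mrpl28 and Mrpl14, both higher in cRADΔ/Δ-MLPKO, where 3.81% of all genes were called higher, and limma-voom called 0. At an unadjusted p under 0.05, 10 members (12.8%) were higher, 6 in the large and 4 in the small subunit, where 10.1% of all genes tested were. Another 4 (5.13%) were lower, 3 in the large and 1 in the small subunit, where 11.5% of all genes were. The share higher was near the background and the share lower was below it. With upper-quartile scaling in place of TMM these counts were 11 higher and 0 lower in the large and 6 and 1 in the small subunit. Mrpl28 and Mrpl14 were called in that fit, where 382 of all 13451 genes tested were. That scaling also moved the median log2 fold change over all genes from 0.011 to 0.035. The shares above therefore do not apply to its counts at an unadjusted p under 0.05. Most members nevertheless had a slightly larger fitted level in cRADΔ/Δ-MLPKO. The fold change was above 1 for 38 of 49 large-subunit genes (77.6%) and 21 of 29 small-subunit genes (72.4%), beside 52.1% of all genes tested. Median log2 fold changes were 0.06 and 0.049, beside 0.011 over all genes. Estimates were narrow: the 95% interval of the fold change lay within 0.5 on the log2 scale in either direction (a 1.41-fold difference) for 75 of 78 members, beside 61.6% of all genes tested. The exceptions were Mrpl14, Mrpl28 and Mrpl39, whose intervals reached higher values. The share over all genes includes genes with few counts and was not matched to the members by level.

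Many of the genes shared features of their promoters, which the symbol rule did not use. The window searched ran from 250 bases before to 50 bases after the annotated start of the canonical transcript, on the mouse genome build GRCm39, for 13040 tested protein-coding genes. ETS-type sites (CCGGAAG on either strand), bound by nuclear respiratory factor 2 among other ETS proteins, were in 24 of 78 member promoters (30.8%) and in 14.5% of all. The site of nuclear respiratory factor 1 (its consensus of 10 bases, searched on either strand), a regulator of nuclear genes for respiration, was in 12 (15.4%) against 8.74%. The YY1 site (AAGATGGC on either strand) was in 6 (7.69%) against 3.28%, and the E-box CACGTG was in 5 (6.41%) against 9.84%. At least 1 of the first 3 motifs was in 36 member promoters (46.2%) and in 23.9% of all. These are matches of letters, not sites shown to be bound, and none of the 4 motifs contains another.

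The following stretches show the kind of sequence behind those counts in members described further on. Each is read 5′ to 3′ on the strand of the gene named, and capitals mark the motif. Mrpl12 (chr11:120375372-120375401, plus strand), Mrpl44 (chr1:79753690-79753719, plus strand), Mrps21 (chr3:95778898-95778927, minus strand) and Mrpl45 (chr11:97206494-97206523, plus strand) carry the nuclear respiratory factor 1 site, and Mrps22 (chr9:98483726-98483755, minus strand) and Mrpl43 (chr19:44994882-44994911, minus strand) the ETS site.
Mrpl12: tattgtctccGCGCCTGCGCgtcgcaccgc
Mrpl44: agaagcacttGCGCACGCGCagtacactag
Mrps21: ggaaagtccaGCGCCTGCGCtcagcaccga
Mrpl45: tggtttcattGCGCACGCGCgaacccactg
Mrps22: aaacctctcgagCCGGAAGttgctctatcg
Mrpl43: catgccacaaccccggaaCCGGAAGtcacc

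A second shared feature was a neighbour that starts close by on the other strand. For 23 of 78 members (29.5%) another gene started on the opposite strand within 300 bases, against 8.52% of all tested protein-coding genes. For 13 of these members the starts lay apart, so that member and neighbour were transcribed away from each other. For the other 10 the transcripts overlapped at their starts. The pair of Mrps11 and Mrpl46 enters these counts through both of its members. Mrps11 and Mrpl46, which encode a protein of each subunit, started 30 bases apart on chromosome 7 and faced away from each other. The 29 bases between their canonical starts (chr7:78432838-78432866, on the strand of Mrps11) are also covered by annotation of Mrpl46 beyond its canonical transcript. Exons on the opposite strand cover 16.35% of the bases of Mrps11. The 29 bases are shown because they are common to both promoters.
Mrps11-Mrpl46: ccatgaggcaacgcgggccggcgaggggc

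The fitted log2 fold changes of this pair, chosen after its values were seen, were 0.17 for Mrps11 (SE 0.096, adjusted p = 0.333) and 0.18 for Mrpl46 (SE 0.086, adjusted p = 0.258), by edgeR. Mrpl43, also named after its values were seen, started 56 bases from Twnk, the gene of the mitochondrial DNA helicase. Their log2 fold changes were 0.08 and 0.25, with adjusted p-values of 0.604 and 0.114 by edgeR. Mrps12 shared its upstream region with Sars2, the mitochondrial seryl-tRNA synthetase, 129 bases away, with log2 fold changes of -0.01 and 0.03. Mrpl14, with a log2 fold change of 0.35, started 7 bases from Tmem63b, at -0.01. These pairs are examples, and whether close neighbours had like values was not tested. Where the exons of such pairs overlap, reads could be assigned to either gene.

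Levels differed far more between members than between groups. In CPM (counts scaled to the size of the library) per kilobase of canonical transcript, the mean over the 10 mice ran from 1.65 for Mrps18c to 225.4 for Mrpl42, a 136-fold range, with a median of 21.3 in the large and 13.3 in the small subunit. Mrpl42, a mitochondria-specific protein, was at 213.0 ± 20.8 in MLPKO and 237.9 ± 17.5 in cRADΔ/Δ-MLPKO (SD, n = 5 each), well apart from the next large-subunit genes. By the mean over all mice those were Mrpl34, at 69.9 ± 7.37 and 80.7 ± 4.99, Mrpl53, at 75.5 ± 5.08 and 68.0 ± 3.44, and Mrpl28, at 63.2 ± 7.29 and 79.7 ± 5.32. Their order was not the same in the 2 groups, with Mrpl53 the highest of the 3 in MLPKO and the lowest in cRADΔ/Δ-MLPKO. In the small subunit, Mrps21 stood at 82.3 ± 6.72 and 95.4 ± 5.40. Mrps23 stood at 86.1 ± 10.8 and 84.4 ± 9.62, with the 2 groups within each other's spread, and Mrps18a came next at 51.0 ± 2.95 and 56.5 ± 1.77.

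At the lower end, the large subunit had Mrpl19 at 4.45 ± 0.584 in MLPKO and 4.96 ± 0.333 in cRADΔ/Δ-MLPKO, Mrpl17 at 5.22 ± 0.205 and 4.86 ± 0.342, and Mrpl32 at 5.10 ± 0.229 and 5.10 ± 0.256. The small subunit had Mrps18c at 1.65 ± 0.153 and 1.66 ± 0.173, Mrps25 at 4.46 ± 0.808 and 4.93 ± 0.554, and Mrps2 at 5.11 ± 0.367 and 5.54 ± 0.232. Apart from Mrps18c, these lowest levels lay within each other's range. The order depends on the annotated length, which was 7366 bases for Mrpl17 and 6102 for Mrps25, the shorter transcripts of a gene not being weighed. All members were well counted, with raw counts between 173 and 9257 in any mouse.

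**Figure D1:**
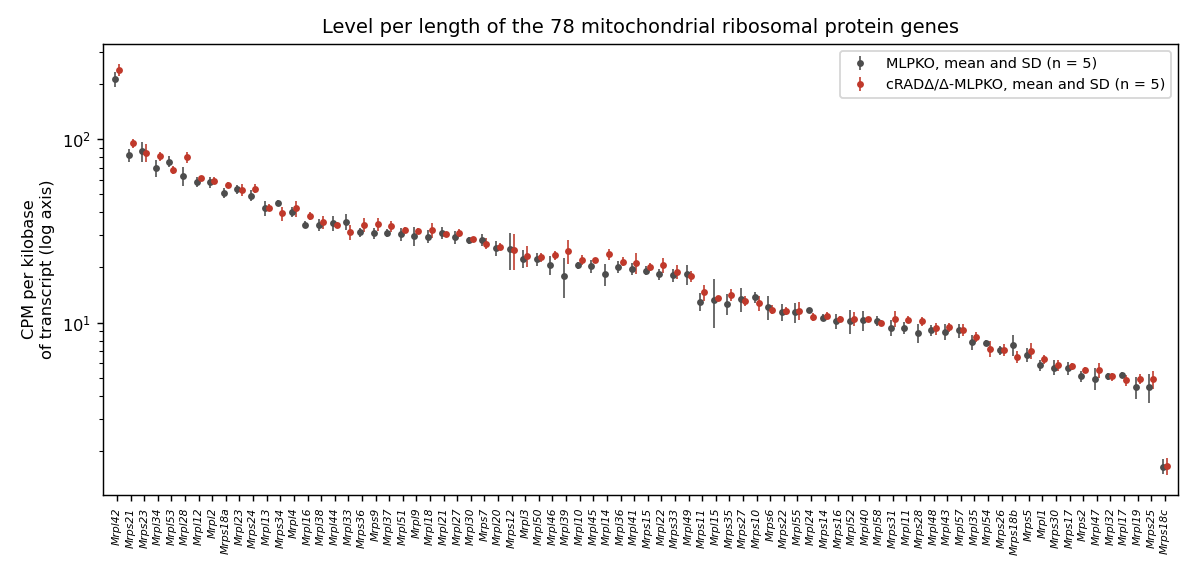
Level of each of the 78 genes in CPM per kilobase of canonical transcript (vertical log axis), ordered by the mean over all mice, with points at the group mean and bars of 1 SD (n = 5). The levels spanned 136-fold between genes. Between the grey MLPKO and red cRADΔ/Δ-MLPKO points of a gene, the largest fitted fold change was 1.365, for Mrpl39.

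Among large-subunit proteins of bacterial descent, Mrpl28 (bL28m) had the smallest p. Its normalised read counts, scaled to a common library size, were 2851, 2291, 2812, 2880 and 3187 in MLPKO mice 1 to 5. In cRADΔ/Δ-MLPKO mice 1 to 5 they were 3170, 3469, 3673, 3789 and 3570. The groups met only at MLPKO mouse 5 and cRADΔ/Δ-MLPKO mouse 1, and the means were 2804 ± 323 and 3534 ± 236 (SD, n = 5). The log2 fold change was 0.33 (SE 0.083), and it missed the threshold with an adjusted p of 0.0559 by edgeR and passed it with 0.00871 by DESeq2.

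Mrpl14 (uL14m), which lies at the face of the large subunit that meets the small one, had 1188, 1064, 1350, 1380 and 1511 normalised counts in MLPKO mice 1 to 5. The cRADΔ/Δ-MLPKO mice had 1550, 1705, 1535, 1759 and 1757. Every cRADΔ/Δ-MLPKO value exceeded every MLPKO value, the nearest being 1511 and 1535. The log2 fold change was 0.35 (SE 0.091), with an adjusted p of 0.0599 by edgeR and 0.0124 by DESeq2. Without MLPKO mouse 4 the edgeR adjusted p was 0.0478, and without MLPKO mouse 2 it was 0.0672.

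Mrpl16 (uL16m), a protein near the peptidyl transferase centre, had 1544, 1628, 1740, 1613 and 1678 counts in MLPKO. It had 1755, 1962, 1892, 1762 and 1809 in cRADΔ/Δ-MLPKO, again with no overlap, although the nearest values were 1740 and 1755. The log2 fold change was 0.16 (SE 0.054, adjusted p = 0.112 by edgeR). Mrpl45, which attaches the ribosome to the inner membrane and was named after its values were seen, was the other member with no overlap, at 1768 to 2150 in MLPKO and 2172 to 2296 in cRADΔ/Δ-MLPKO (log2 fold change 0.12, SE 0.061, adjusted p = 0.29). These 3 large-subunit genes and 0 small-subunit genes were higher without overlap (3.85% of the members), where 2.65% of all genes tested were. No member was lower without overlap, where 3.98% of all genes were.

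Mrpl39, a mitochondria-specific protein that resembles a threonyl-tRNA synthetase, had the largest fitted difference of the 78, with a wide spread within both groups. The counts were 1754, 1222, 2225, 2368 and 1705 in MLPKO, and 1908, 2401, 2732, 2868 and 2758 in cRADΔ/Δ-MLPKO. MLPKO mice 3 and 4 lay above cRADΔ/Δ-MLPKO mouse 1, so the groups overlapped. The log2 fold change of 0.45 had an SE of 0.166 and an adjusted p of 0.143 by edgeR, and without MLPKO mouse 2, the lowest, it was 0.33 with an adjusted p of 0.177.

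Mrpl34 (bL34m) had 1894 ± 200 counts in MLPKO and 2184 ± 135 in cRADΔ/Δ-MLPKO (SD, n = 5), a log2 fold change of 0.20 (SE 0.079, adjusted p = 0.156 by edgeR). In the other direction, Mrpl53 had 2122, 2084, 2205, 2030 and 2404 counts in MLPKO and 1842, 2023, 2055, 1996 and 1855 in cRADΔ/Δ-MLPKO. Its highest cRADΔ/Δ-MLPKO mouse overlapped only MLPKO mouse 4, and the log2 fold change was -0.15 (SE 0.061, adjusted p = 0.175). Mrpl24, at -0.13 (SE 0.053), and Mrpl33, at -0.19 (SE 0.086), were the other large-subunit genes with a fold change below 1 and an unadjusted p under 0.05, and are named outside the rule for named genes to complete that count. Parts of these transcripts lie under exons of other genes: 82.0% of the bases of Mrpl34 and 70.5% of those of Mrpl24 on the opposite strand, and 24.2% of those of Mrpl33 on the same strand.

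**Figure D2:**
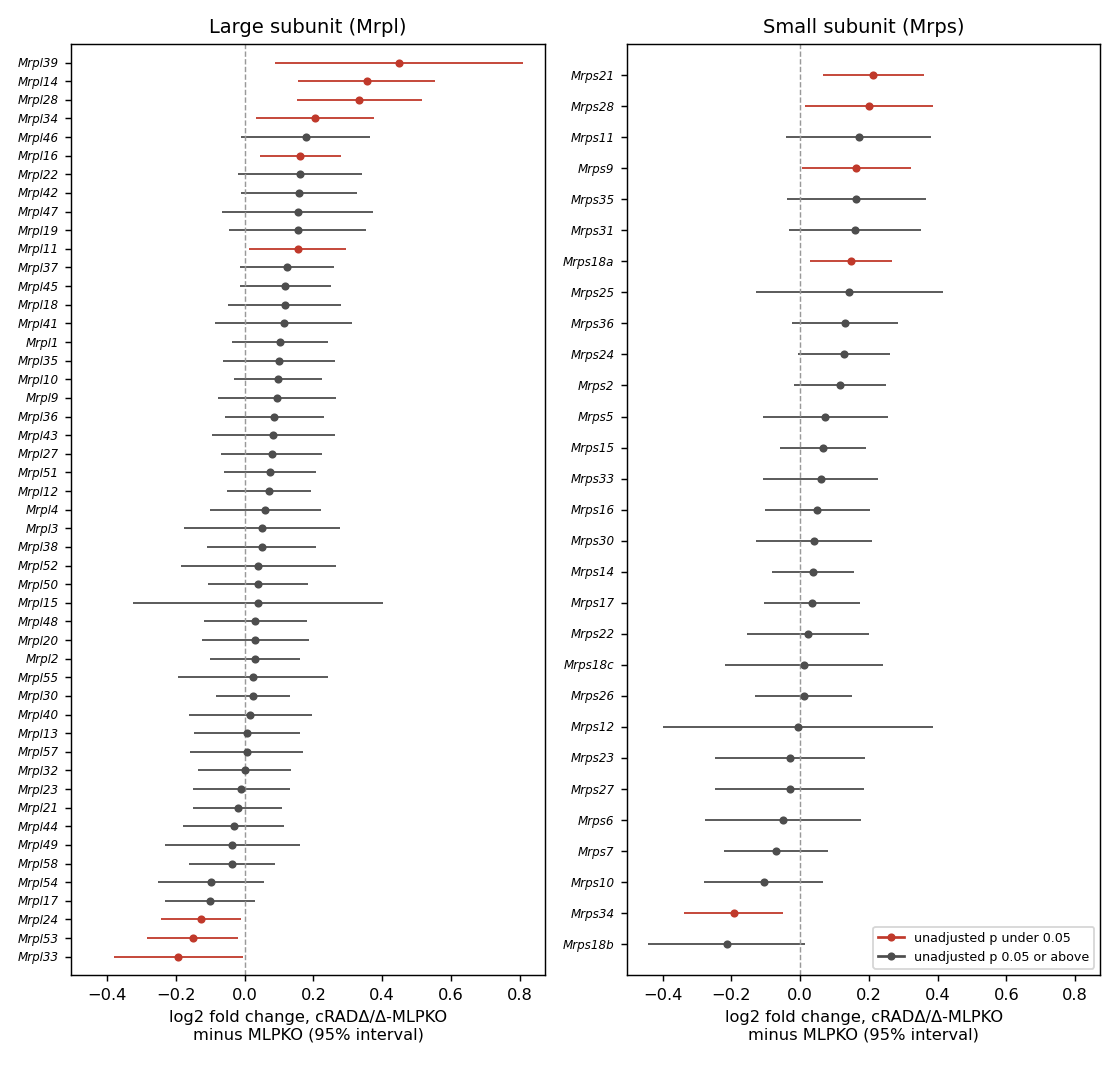
Fitted log2 fold change of cRADΔ/Δ-MLPKO over MLPKO for each gene (horizontal axis; points, estimate; lines, 95% interval; n = 5 mice a group), large subunit on the left and small subunit on the right. Red marks an unadjusted p under 0.05, and none of the 78 passed after adjustment by edgeR. Most points lay between -0.2 and 0.2, and Mrpl39, Mrpl14 and Mrpl28 lay above 0.3.

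The stalk of the large subunit recruits translation factors to the ribosome. Its 3 genes had log2 fold changes of 0.10 for Mrpl10 (SE 0.058), 0.15 for Mrpl11 (SE 0.065) and 0.07 for Mrpl12 (SE 0.056), with adjusted p-values of 0.362, 0.194 and 0.501 by edgeR. Mrpl12 was nearly flat in 9 of the mice, between 5956 and 6481 counts, and stood at 5235 in MLPKO mouse 2. The 6 proteins around the exit tunnel of the nascent chain gave no common sign, with 3 fold changes above and 3 below 1.

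In the small subunit, the gene with the smallest p was Mrps21. This gene (bS21m) had 1853, 1687, 1972, 1830 and 2096 counts in MLPKO and 2249, 2180, 1976, 2262 and 2273 in cRADΔ/Δ-MLPKO. Only cRADΔ/Δ-MLPKO mouse 3 fell into the MLPKO range, and the log2 fold change was 0.21 (SE 0.067, adjusted p = 0.0985 by edgeR). Mrps34, a mitochondria-specific protein, had the opposite sign, with 1719, 1822, 1652, 1735 and 1802 counts in MLPKO and 1349, 1435, 1680, 1592 and 1578 in cRADΔ/Δ-MLPKO. Here cRADΔ/Δ-MLPKO mouse 3 lay just above the lowest MLPKO mouse, and the log2 fold change was -0.19 (SE 0.066, adjusted p = 0.119). Of the bases of the Mrps34 transcript, 77.9% lie under exons on the opposite strand.

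Mrps28 (bS1m) and Mrps9 (uS9m) had log2 fold changes of 0.20 (SE 0.085) and 0.16 (SE 0.073), with adjusted p-values of 0.197 and 0.22 by edgeR. Mrps24 (uS3m), which lines the entry of the messenger RNA, had 0.13 (SE 0.062, adjusted p = 0.259). All 3 had groups that overlapped, with Mrps28 at 846 to 1170 in MLPKO and 1137 to 1286 in cRADΔ/Δ-MLPKO. Mrps23, the small-subunit gene with the most counts, had 4878 ± 611 and 4777 ± 545 counts (SD, n = 5), a log2 fold change of -0.03 (SE 0.10).

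Members of bacterial descent and those added in mitochondria had medians of 0.08 and 0.04 in the large subunit (30 and 19 genes) and 0.06 and 0.02 in the small subunit (16 and 10 genes), on the log2 scale.

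**Figure D3:**
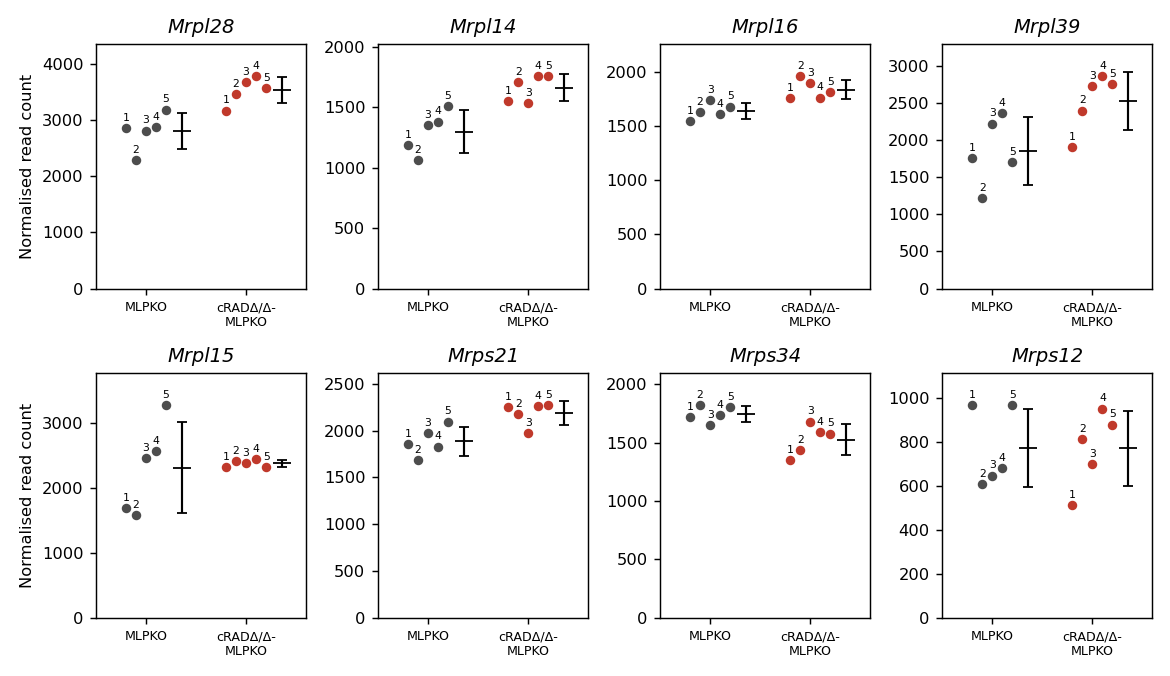
Normalised read counts (vertical axes, from 0) of 8 genes in each mouse, grey for MLPKO and red for cRADΔ/Δ-MLPKO, with mouse numbers over the points and the mean with 1 SD (n = 5) in black. The groups do not overlap for Mrpl14 and Mrpl16, overlap for the others, and differ in spread for Mrpl15.

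The members tied to inherited cardiomyopathy in people lay close to no difference. Mrpl44 had 2055 ± 190 counts in MLPKO and 2011 ± 75.9 in cRADΔ/Δ-MLPKO (SD, n = 5), and the 95% interval of its log2 fold change ran from -0.18 to 0.12. Mrpl3, at 3658 ± 407 and 3790 ± 504, had an interval from -0.18 to 0.28. Mrps14, at 1322 ± 62.3 and 1357 ± 59.2, had an interval from -0.08 to 0.16, and Mrps22, at 570.2 ± 59.1 and 579.4 ± 28.9, one from -0.15 to 0.20.

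For 3 members the symbol and the place of the protein differ. Mrps18a and Mrps30 encode proteins of the large subunit, and Mrps36 encodes a component of the 2-oxoglutarate dehydrogenase complex. Mrps18a had 1796, 1738, 2019, 1882 and 1913 counts in MLPKO and 2042, 2134, 1992, 2143 and 2048 in cRADΔ/Δ-MLPKO, overlapping only through MLPKO mouse 3 and cRADΔ/Δ-MLPKO mouse 3. Its log2 fold change was 0.15 (SE 0.054, adjusted p = 0.139 by edgeR), and 72.3% of its bases lie under exons on the opposite strand. Mrps30 had 0.04 (SE 0.077, adjusted p = 0.816) and Mrps36 had 0.13 (SE 0.071, adjusted p = 0.311). With subunits assigned by structure, which also brings in the 5 subunits under other names, the medians were 0.06 over 52 large-subunit and 0.03 over 30 small-subunit genes. The 5 had log2 fold changes of 0.01 for Dap3, -0.03 for Chchd1, 0.02 for Aurkaip1, -0.23 for Ptcd3 (SE 0.079, adjusted p = 0.119) and -0.06 for Gadd45gip1, and 0 of them was called by edgeR or DESeq2, with Ptcd3 the 1 at an unadjusted p under 0.05. Ptcd3, a pentatricopeptide protein of the small subunit, thus lay on the same side as Mrps34.

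Members varied little between mice, with a median coefficient of variation over all 10 of 8.11%, beside 13.5% over all genes tested. It ran from 3.61% for Mrpl30 to 24.5% for Mrpl39, a measure that includes any difference between the groups. The comparison was not matched by level: 60 of 78 members had a mean raw count above 1000, while the genes tested include some with few counts. A pair of genes named after their values were seen varied in ways the group means hide. Mrpl15 (uL15m) had 1688, 1580, 2457, 2561 and 3273 counts in MLPKO and 2319, 2416, 2379, 2446 and 2314 in cRADΔ/Δ-MLPKO. Means were close, at 2312 and 2375, while the SD was 695 in MLPKO and 58.2 in cRADΔ/Δ-MLPKO. Mrps12 (uS12m), a protein of the decoding centre, had 970, 610, 648, 682 and 968 counts in MLPKO and 513, 815, 699, 954 and 881 in cRADΔ/Δ-MLPKO, a wide spread in both groups with no difference in the mean (log2 fold change -0.01, SE 0.18). The SD was larger in MLPKO for 53 of 78 members (67.9%), beside 60.2% of all genes tested, and without MLPKO mouse 2 for 33 of 78, beside 49.4%.

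The size of the slight difference between the groups varied with the mice included, while both subunit medians stayed positive with each mouse left out. MLPKO mouse 2 had the lowest normalised count of the 10 mice for 48 of 78 members (61.5%), where it was the lowest for 20.4% of all genes tested and the highest for 19.8%. The mean log2 deviation of the large-subunit genes from their 10-mouse means was -0.18 in that mouse, and lay between -0.05 and 0.07 in the other MLPKO mice and between 0.00 and 0.09 in the cRADΔ/Δ-MLPKO mice. In the small subunit it was -0.17, beside -0.03 to 0.10 in the other MLPKO mice and -0.04 to 0.08 in the cRADΔ/Δ-MLPKO mice. MLPKO mouse 2 was also the lowest of the 10 for the mean deviation of complex I (-0.17), complex IV (-0.24) and mitochondrially encoded genes (-0.23). It had the highest fibroblast marker sum of its group, 1995 CPM beside 1361 to 1476. That sum was higher still in cRADΔ/Δ-MLPKO mouse 1, at 2043 CPM, where the mean deviation was 0.01 in the large and -0.04 in the small subunit. The part of the fibroblast markers in the low values of MLPKO mouse 2, or of what lowered the other lists, was not tested. MLPKO mouse 5 and cRADΔ/Δ-MLPKO mouse 4 were at the upper end, each the highest mouse for 21 members. Without MLPKO mouse 2, the median log2 fold change was 0.04 in the large and 0.02 in the small subunit, beside 0.01 over all genes. In that fit the fold change was above 1 for 31 of 49 and 17 of 29 genes, and the matching share over all genes was not computed. Without cRADΔ/Δ-MLPKO mouse 4 the median was also 0.04 in the large subunit, and 0.05 in the small. Summed over all 78 genes, the members took 2858 to 3408 CPM in MLPKO and 3184 to 3476 in cRADΔ/Δ-MLPKO, with means of 3159 ± 203 and 3327 ± 114 (SD, n = 5).

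**Figure D4:**
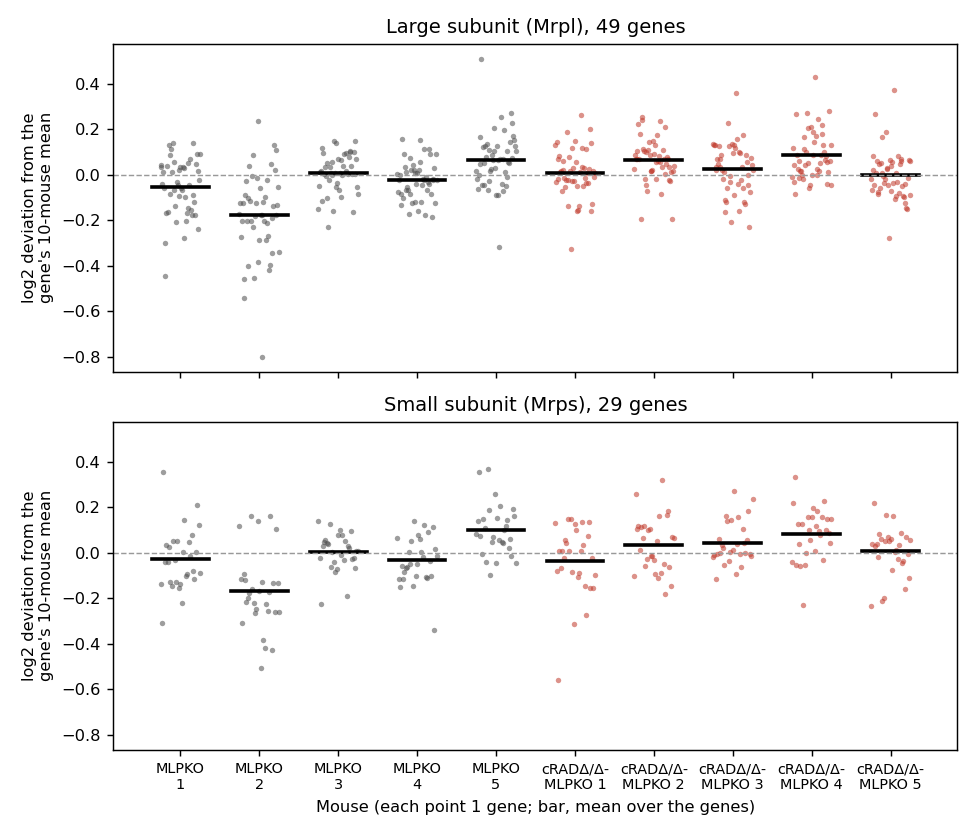
Log2 deviation of each gene from its mean over the 10 mice (vertical axis) in each mouse (horizontal axis), for 49 large-subunit genes above and 29 small-subunit genes below, grey for MLPKO and red for cRADΔ/Δ-MLPKO. Points are genes and black bars are their means. MLPKO mouse 2 lay lowest, at -0.18 and -0.17, and the other bars lay between -0.05 and 0.10.

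The rest of the machinery for mitochondrial gene expression was also without a call. The lists held 26 assembly factors, 16 translation factors, 20 mitochondrial aminoacyl-tRNA synthetases and 11 genes of mitochondrial DNA maintenance and transcription tested. Of these, 0 passed edgeR's test, and at an unadjusted p under 0.05 there were 4 higher and 3 lower in all. At that p, 10.1% of all genes tested were higher and 11.5% lower. DESeq2 called 1 assembly factor (Trub2) and 1 translation factor (Gfm2), both lower, where it called 786 of all 13451 genes lower. Median log2 fold changes of these lists, in the same order, were 0.02, 0.02, 0.02 and 0.03. The RNAs of the mitochondrial ribosome itself, mt-Rnr1 and mt-Rnr2, named after their values were seen, had log2 fold changes of 0.41 (SE 0.121) and 0.42 (SE 0.119), with adjusted p-values of 0.0841 and 0.0767 by edgeR and 0.0209 and 0.015 by DESeq2. Since polyA selection was used, those levels may not follow the amount of ribosomal RNA. Over the 15 mitochondrially encoded genes the median was 0.15, with 14 fold changes above 1 and 0 called by edgeR. DESeq2 called 5 higher, where it called 3.81% of all genes higher, and 5 (33.3%) were higher at an unadjusted p under 0.05.

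Nuclear-encoded subunits of the respiratory chain and ATP synthase, which this ribosome does not make, and the cytosolic ribosomal proteins are set beside them as values. Nuclear-encoded subunits of complexes I to V had a median log2 fold change of 0.15 over 84 genes, 80 of them with a fold change above 1. At an unadjusted p under 0.05, 33 (39.3%) were higher, where 10.1% of all genes were. DESeq2 called 10 higher, where it called 3.81% of all genes higher, and edgeR called 3 higher, where it called 0.944%. Those 3 were Ndufa1 at 0.32 (SE 0.075, adjusted p = 0.0475), Ndufv3 at 0.30 (SE 0.071, adjusted p = 0.0492) and Cox8a at 0.32 (SE 0.061, adjusted p = 0.0249), by edgeR. Ndufa1 and Ndufv3 encode accessory subunits of complex I and Cox8a the widely expressed form of a small complex IV subunit. The 94 cytosolic genes by the symbol pattern Rpl or Rps, which also takes in 10 S6 kinase genes, had a median of 0.05, with Rps13 called higher at 0.24 (SE 0.053, adjusted p = 0.0388). The number called across all these lists was 4, but 2 with RLE scaling, 1 with mouse number as a block, and 0 without cRADΔ/Δ-MLPKO mouse 2, 4 or 5. Whether the mitochondrial ribosomal genes differed from these lists was not tested.

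**Figure D5:**
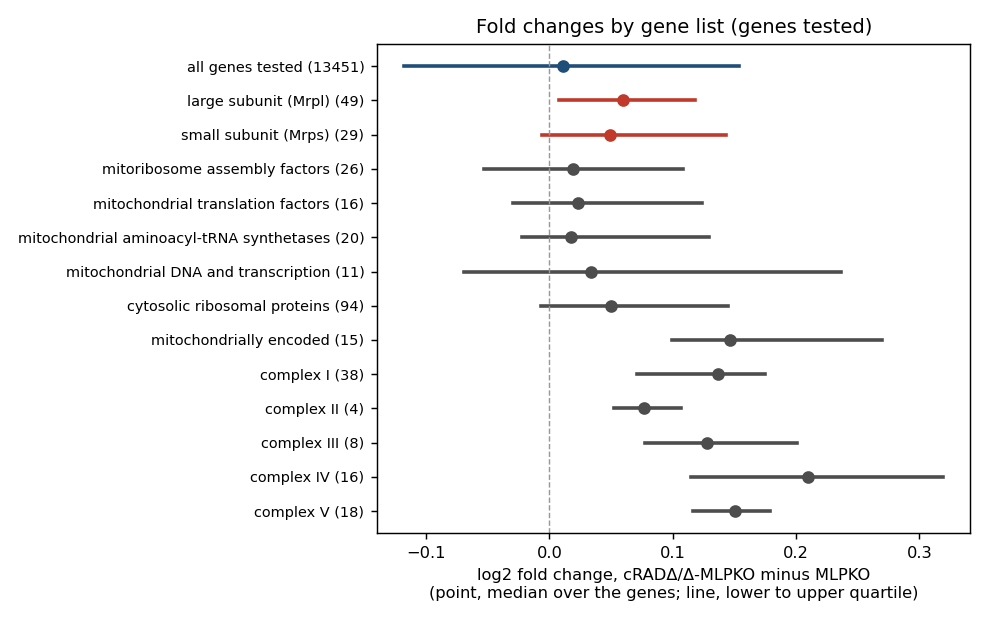
Log2 fold change of cRADΔ/Δ-MLPKO over MLPKO (horizontal axis) by gene list, with the number of genes tested in brackets; points are medians over the genes and lines run from the lower to the upper quartile. Both subunits (red) lay at 0.06 and 0.05, close to all genes (blue, 0.01), and complexes I to V lay between 0.08 and 0.21.

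Total counts ran from 33457406 in MLPKO mouse 2 to 49965101 in MLPKO mouse 3, and cRADΔ/Δ-MLPKO mouse 1 had 33759811. Csrp3 had reads in all 10 mice, with normalised counts of 41725 to 134790 in MLPKO and 28554 to 48660 in cRADΔ/Δ-MLPKO, and Rrad had 5774 to 11644 and 5562 to 8362 (log2 fold change -0.38, SE 0.198, adjusted p = 0.29 by edgeR), so counts over these whole genes did not check the genotypes. The tissue carried the 8 cardiomyocyte markers at high counts, but their summed level was 66160 to 76860 CPM in MLPKO and 52050 to 63920 in cRADΔ/Δ-MLPKO. Tnnt2 was called lower, and Tnni3 was the 1 of the 8 with a fold change above 1, at 0.13 on the log2 scale (not called). Macrophage markers summed to 143.0 to 203.4 and 175.0 to 316.2, with 8 of 8 fold changes above 1 and at an unadjusted p under 0.05, 0 called by edgeR and 4 by DESeq2. Endothelial markers summed to 760.1 to 885.7 and 905.1 to 1032, with Tek called higher. Vwf was the 1 of these 8 with a fold change below 1, at -0.13 on the log2 scale (not called). Smooth muscle and pericyte markers summed to 463.6 to 612.4 and 616.3 to 837.8, with Acta2 and Rgs5 called higher. Myh11 and Pdgfrb were at log2 fold changes of 0.01 and -0.01 and Cnn1 at -2.17 (not called), and Tagln had too few counts to be tested. Fibroblast markers summed to 1361 to 1995 and 1110 to 2043. Lymphocyte markers were near 0, at 1.52 to 6.86 CPM in all mice. The part of these markers in the values of the mitochondrial ribosomal genes was not tested, and in bulk tissue fewer cells of a type and less RNA per cell cannot be told apart.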

How the data were processed

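RNA from 5 MLPKO and 5 cRADΔ/Δ-MLPKO ventricles was sequenced. Per the labels, the authors aligned reads to GRCm39 with STAR and deposited raw counts per gene from featureCounts; versions, strand and multi-mapping settings are not given in the sources used here. In each mouse 73.7 to 80.3% of counts between 1 and 20 were even, beside 51.0 to 56.5% of those above 1000, so small counts are less precise than their size. Exons of other genes cover over 10% of the transcript of 34 of the 78 members, and such reads could be lost or shared.

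A gene entered the fit when 6 or more of the 10 mice each exceeded 10 counts and its symbol was not a predicted Gm or Rik name. The fit used edgeR 4.0.16 (TMM, quasi-likelihood test; R 4.3.3), and p-values were adjusted over all genes fitted. DESeq2 1.42.0 and limma 3.58.1 (voom) were alternatives, with other scalings, filters, a replicate block, structural subunits and each mouse left out. The edgeR step was tested on simulated data. Normalised counts are counts scaled to the mean effective library; deviations use log2 with a pseudocount of 1. Lengths, starts and exons came from the canonical transcripts of GENCODE M39. Members had at least 173 raw counts in every mouse; counting error was not separated from other variation. Each library came from 1 mouse.

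Named members were any called, the 6 smallest p and the 3 highest and 3 lowest levels per length in each subunit, the stalk, genes of inherited cardiomyopathy and misnamed genes, with exceptions stated. Members and lists were chosen with earlier results of these data known. Same-numbered mice were checked for shared deviations and were not treated as pairs.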

Additional observations from a re-analysis of the deposited data

Results flagged for a closer look

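Values of the named members and the subunit means were searched for 1 mouse far from the other 4 of its group, in 74 sets of 5 values. By Dixon's criterion (gap over range above 0.71), which chance alone meets in about 1 in 20 such sets, 3 stood out. Mrpl12 had 5235 normalised counts in MLPKO mouse 2, with a gap of 0.909 of the range, and Mrpl45 had 1768 in the same mouse, with a gap of 0.774. Without that mouse the log2 fold changes were 0.03 for Mrpl12 and 0.07 for Mrpl45. Mrpl19 had 1143 in cRADΔ/Δ-MLPKO mouse 2, with a gap of 0.712.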

How the results depend on the processing

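Members called numbered 0 in the small subunit under every alternative. In the large subunit they numbered 2 with DESeq2 and 2 with upper-quartile scaling (Mrpl28 and Mrpl14 each time), from 0 to 1 with each mouse left out (Mrpl14, without MLPKO mouse 4), and 0 under the others. Genes called over the whole table numbered 1298 with DESeq2 and 382 with upper-quartile scaling, beside 369. With each mouse left out they numbered from 50 (without cRADΔ/Δ-MLPKO mouse 5) to 826 (without MLPKO mouse 4). In the partner lists 4 were called, 22 with DESeq2, 2 with RLE factors, 1 with no filter on low counts, 2 with Gm and Rik genes kept, and 0 to 9 with each mouse left out (9 without MLPKO mouse 4). With each mouse left out, medians were 0.0376 to 0.088 in the large and 0.0187 to 0.0903 in the small subunit. The lowest were without MLPKO mouse 2, and the highest without MLPKO mouse 5 and cRADΔ/Δ-MLPKO mouse 1. Medians over all genes in the same fits were 0.00793 to 0.017, and 0.0107 without MLPKO mouse 2. The cause of these shifts was not tested.

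Over 35 named genes and 19 alternatives, 632 of 665 values kept their sign and side of the threshold, 5 passed it (Mrpl28 and Mrpl14) and 28 changed sign, all in 8 genes with small fold changes. The log2 fold change of Mrpl32 was 0.0249 with upper-quartile scaling, 0.00184 with no filter and 0.0051 with filterByExpr. That of Mrps12 was 0.000185 with limma-voom and 0.0179 with upper-quartile scaling, and that of Mrps18c was -0.00768 with limma-voom. With each mouse left out the ranges were -0.0711 to 0.196 for Mrpl15, -0.0302 to 0.0271 for Mrpl32, -0.076 to 0.0168 for Mrpl44, -0.087 to 0.109 for Mrps12, -0.0246 to 0.0647 for Mrps18c, -0.0301 to 0.0618 for Mrps22, -0.0711 to 0.0369 for Mrps23 and -0.00815 to 0.0751 for Mrps30.

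Mice that share a number are different animals, and their deviations correlated at -0.0423 to 0.152, with the own number the best partner in 2 of 5. With mouse number as a replicate block, 281 genes and 0 members were called, 1 in the partner lists, and medians were 0.0726 and 0.0537.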
